A study of Homo sapiens with 4 samples.

Results

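The genes described here are the G1 cyclins, the kinases they activate and the inhibitors of those kinases, taken as the rows of the deposited table whose symbol was CCND1, CCND2, CCND3, CCNE1, CCNE2, CDK2, CDK4, CDK6, CDKN1B or CDKN2C. Of these 10 symbols 9 had a row, out of 19749 rows in all, and CDKN2C was not analysed here. The study treated U87 cells, a human glioblastoma line, with the small molecule YZ129 at 5 µM for 24 h (n = 2 libraries) or with the vehicle DMSO (n = 2 libraries), and sequenced poly(A) RNA. The series title places the compound among inhibitors of a pathway of HSP90, calcineurin and NFAT. The single comparison of the design asks which transcripts differ between YZ129 and DMSO.

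The deposited data were the authors' own comparison: for each gene a mean level, a log2 fold change moderated towards 0, its standard error (SE), and p-values before and after adjustment. The value of each library was not analysed here, so no gene can be shown library by library. The mean level is not the level of either group. It was an average of 8 libraries, of which the samples described here can be only 4. What those other libraries were is not stated in the sources used here, nor is it known how many libraries stand behind each SE. The labels do not say whether the libraries of a group were separate cultures. The p-values then cover only the spread between these libraries, which may be technical.

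The numerator of the fold changes is not named in the table, whose own name gives DMSO before the compound. Positive values were taken to mean higher with YZ129. The basis is a list of heat shock genes, most of them cytosolic, which cells are known to induce when HSP90 fails. Of 24, 11 passed as positive and 0 as negative, and 13 did not pass. Across all tested genes, 5.24% passed as positive and 7.64% as negative. In sign, 20 of the 24 changes were positive and 4 negative. The list was written with earlier results of these data known. Under the opposite reading every direction below turns round, while the sizes of log2 changes and of folds, the errors and the p-values stay. As for the cell type, the mesenchymal markers VIM, CD44 and FN1 had mean levels of 298885, 134994 and 103539 in the authors' deposited table. The astrocyte marker GFAP stood at only 52.2 there, and S100B (1.12) and SOX2 (0.851) lay near the lowest level in it. Of 7 tested glioma and mesenchymal markers, 3 fell (VIM, CD44 and the progenitor marker NES), 0 rose and 4 did not pass. Across all tested genes, 7.64% were called lower. CD44 did not pass once the median change of all tested genes was subtracted (adjusted p = 0.080). The 4 were OLIG2 (0.82 ± 0.33, adjusted p = 0.079 by the authors), EGFR (0.09 ± 0.21), FN1 (-0.03 ± 0.14) and GFAP (-0.56 ± 0.39). The part of these markers in the results below was not tested. Of 8 markers of other cell types, 7 had mean levels from 1.23 (CDH1) to 49.9 (MBP) in that table, while the lysosomal marker CD68 stood at 12821. None of the 5 that were tested passed, with 0 also at an unadjusted p under 0.05 (columns of DESeq2).

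Cells commit to division in G1. Mitogens raise the D-type cyclins, which activate CDK4 and CDK6. These begin to phosphorylate the RB protein and its relatives, which releases E2F transcription factors. E2F then induces the E-type cyclins, which activate CDK2 and drive entry into S phase. Inhibitors of the CIP/KIP family, such as CDKN1B (the p27 protein), bind cyclin-CDK complexes, and inhibitors of the INK4 family, such as CDKN2C, bind CDK4 and CDK6. U87 cells are known to have lost the INK4 locus CDKN2A. CDK4 and CDK6 are known to depend on HSP90 and its kinase cochaperone CDC37 for folding, an effect on protein that RNA levels do not measure.

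RefSeq (GRCh38.p14) gave 11 promoter windows for 6 of the 10 genes, each 250 bases before to 50 bases from a transcript start. CDK2, CCND1, CCND2 and CCNE2 were not among them, so no motif statement below covers these genes. The windows of 3 genes are printed because they stand for the roles in the results: CDKN1B, the inhibitor that passed the test, CDK4, a kinase that did not, and CCNE1, the E-type cyclin that did not. They are chr12:12717118-12717417 (plus strand), chr12:57752261-57752560 (minus strand) and chr19:29811741-29812040 (plus strand), written 5′ to 3′ along the gene. Capitals mark CCAAT boxes (CCAAT) and the GC box (GGGCGG) in CDKN1B, E-boxes (CACGTG) in CDK4 and GC boxes in CCNE1, each on either strand.
CDKN1B: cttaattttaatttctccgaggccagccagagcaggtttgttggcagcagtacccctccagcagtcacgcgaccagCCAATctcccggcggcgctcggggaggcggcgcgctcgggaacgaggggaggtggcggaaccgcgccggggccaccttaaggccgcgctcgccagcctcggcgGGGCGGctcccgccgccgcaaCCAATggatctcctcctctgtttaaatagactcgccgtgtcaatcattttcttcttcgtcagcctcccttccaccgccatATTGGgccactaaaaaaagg
CDK4: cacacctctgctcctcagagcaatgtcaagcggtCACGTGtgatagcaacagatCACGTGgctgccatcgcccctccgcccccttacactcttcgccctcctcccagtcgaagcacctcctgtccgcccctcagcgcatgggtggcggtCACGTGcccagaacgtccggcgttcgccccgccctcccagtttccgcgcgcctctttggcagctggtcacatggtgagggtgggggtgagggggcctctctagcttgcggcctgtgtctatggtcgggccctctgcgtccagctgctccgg
CCNE1: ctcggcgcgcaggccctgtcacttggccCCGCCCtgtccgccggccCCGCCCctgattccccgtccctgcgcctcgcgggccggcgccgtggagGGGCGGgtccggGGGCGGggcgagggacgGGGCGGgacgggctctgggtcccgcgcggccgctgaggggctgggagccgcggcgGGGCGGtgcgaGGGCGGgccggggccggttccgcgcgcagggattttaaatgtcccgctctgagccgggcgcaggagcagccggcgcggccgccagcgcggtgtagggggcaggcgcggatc

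The CDK4 window held 3 E-boxes, the sequence that MYC with MAX is known to bind. At least 1 E-box was present in 7.26% of all 35116 RefSeq windows of this length and at least 3 in 0.0940%. CCNE1 held 7 GC boxes, the letters bound by SP1, against 1.50% of windows with at least 7. CDKN1B held 3 CCAAT boxes, the letters bound by NF-Y, against 3.26% of windows with at least 3, and 1 GC box, which 45.0% of windows hold at least once. None of the 11 windows matched the E2F letters searched (TTTCGCGC, TTTGGCGC or TTTCCCGC, in 2.74% of all windows), the cAMP element (TGACGTCA, 1.85%) or the AP-1 letters (TGAGTCA or TGACTCA, 4.95%). Forkhead letters (GTAAACA, 3.42% of all windows) were found in 1 of the 11, a window of CCND3. Of the 11 windows, 4 held at least 1 E-box, 8 at least 1 GC box and 4 at least 1 CCAAT box, which 34.6% of all windows hold. The motifs do not overlap each other in the printed windows, and a match is a description of letters, not of binding.

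**Figure D1:**
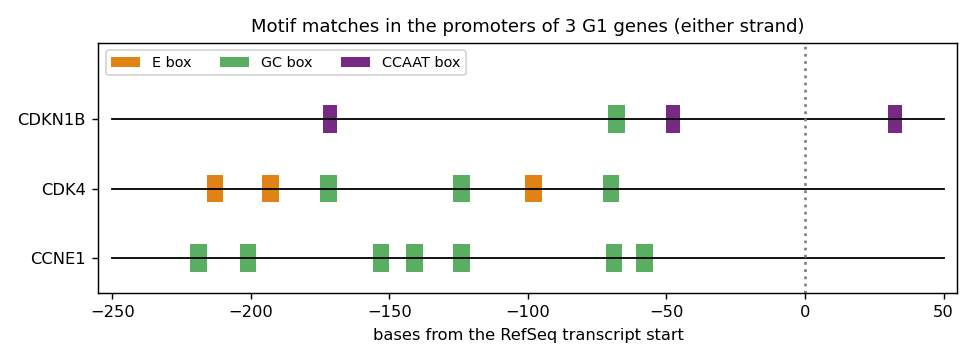
Positions of motif matches on either strand, in bases from the RefSeq transcript start, in the promoter windows of CDKN1B, CDK4 and CCNE1 (coloured boxes: E-boxes, GC boxes and CCAAT boxes). CDK4 has 3 E-boxes, CCNE1 has 7 GC boxes and CDKN1B has 3 CCAAT boxes.

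Among these genes, CCNE2, CDK2 and CDKN1B had lower transcript levels with YZ129 than with DMSO, and no G1 cyclin or kinase was called higher. Of the 9 members tested, 3 fell at the authors' adjusted p under 0.05, 0 rose and 6 did not pass; 4 had an unadjusted p under 0.05. Across all 14812 tested genes, 12.9% passed, 7.64% as lower (1132 genes) and 5.24% as higher (776 genes). With the median change of all tested genes subtracted, 884 were lower and 954 higher. In all, 7 of the 9 had a negative change, as did 56.0% of all tested genes. Their median change was -0.34, beside -0.05 for all tested genes. At the stricter adjusted p of under 0.01, 1 of the 9 fell, CCNE2, beside 4.71% of all tested genes.

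**Figure D2:**
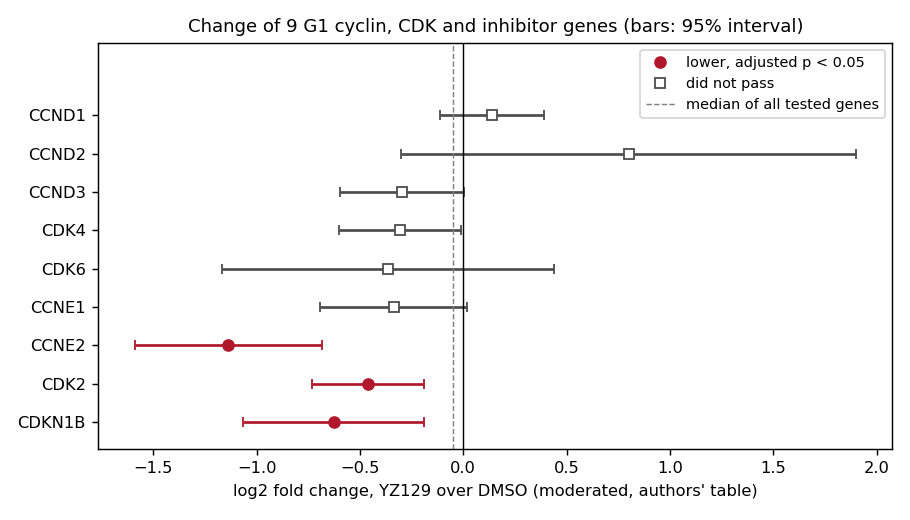
Log2 fold change of YZ129 over DMSO for the 9 genes (x axis) with 95% intervals; filled circles passed an adjusted p of 0.05 and open squares did not. CCNE2 lies furthest to the left at -1.14, and the intervals of CDK6 and CCND2 are the widest.

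Levels differed widely between genes of the same role. Divided by the length of the longest GENCODE transcript, the authors' mean level was 11917 per kb for CCND1, 1048 for CCND3 and 2.43 for CCND2, so CCND1 was 11.4 times CCND3 on this scale. CCND1 had a higher mean level than 99.6% of tested genes, and CCND2 than 4.52%. Among the kinases the mean level per kb was 4255 for CDK4, 1149 for CDK2 and 188 for CDK6, which puts CDK4 at 22.7 times CDK6. That ratio depends on the transcripts chosen, of 2076 bases for CDK4 and 11612 for CDK6. Before division by length the mean levels were 8833 for CDK4 and 2178 for CDK6. The E-type cyclins were closer together, with 379 per kb for CCNE1 and 311 for CCNE2, and the inhibitor CDKN1B had 630. The order per kb from high to low was thus CCND1, CDK4, CDK2, CCND3, CDKN1B, CCNE1, CCNE2, CDK6 and CCND2. No spread over libraries comes with these levels, so neighbours in that order cannot be tested against each other. The transcripts the authors counted are not known. Each level is a mean over 8 libraries, of which the samples described here can be only 4.

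**Figure D3:**
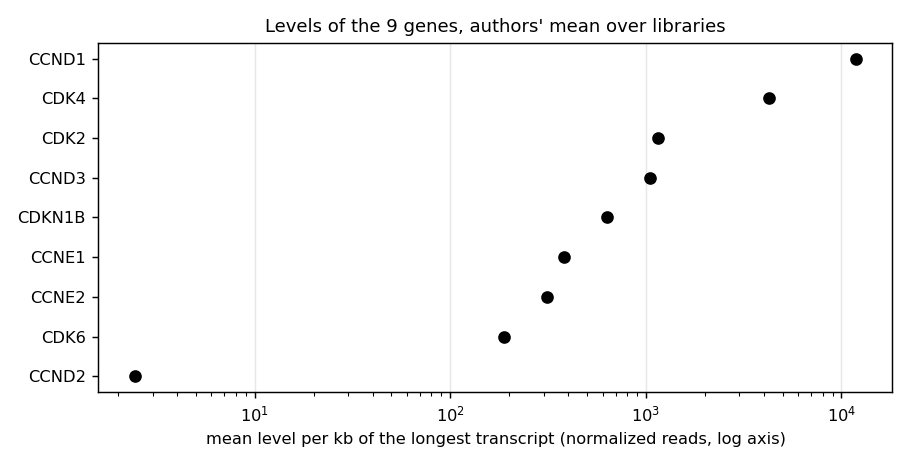
The authors' mean level over libraries per kb of the longest GENCODE transcript (log axis) for the 9 genes. CCND1 is at 11917 and CCND2 at 2.43.

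The E-type cyclins are the partners of CDK2 at the entry to S phase. CCNE2 had the largest change of the 9 genes in size: in the authors' deposited table it was 2.2-fold lower with YZ129 (log2 fold change -1.14 ± 0.23 SE, adjusted p = 3.52e-05), with a mean level of 1036. Its 95% interval ran from -1.59 to -0.68, and only 258 of all tested genes had a lower Wald score. Its paralog CCNE1, with a mean level of 775, stood at -0.34 ± 0.18 in the authors' deposited table and did not pass (adjusted p = 0.23). The interval of CCNE1, -0.69 to 0.02, overlaps that of CCNE2 only at its end; the difference between the paralogs was not tested. CCNE2 overlaps INTS8, the gene of an Integrator subunit on the opposite strand, over 37.0% of the exon bases of CCNE2 in GENCODE 29. Whether the libraries or the counting kept the strand is not stated in the sources used here. INTS8 itself stood at -0.12 ± 0.14 in the authors' deposited table (adjusted p = 0.67).

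CDK2, the kinase of the E-type cyclins, was 1.38-fold lower with YZ129 (-0.46 ± 0.14, adjusted p = 0.011) in the authors' deposited table, with a mean level of 2984. This was the smallest of the called changes, and it was called on the smallest SE of the 3. It did not pass at an adjusted p under 0.01. When the median change of genes in the same decile of mean level was subtracted, CDK2 stood at -0.37 and no longer passed (adjusted p = 0.063). Its exons share 14.5% of their bases with AC025162.1 on the opposite strand, for which no level was available here. They also share 2.29% with PMEL on that strand, a melanosome gene whose mean level was only 23.0 in the authors' deposited table.

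CDKN1B, the CIP/KIP inhibitor that restrains CDK2 and also takes part in the assembly of D-type complexes, was 1.55-fold lower with YZ129 (-0.63 ± 0.22, adjusted p = 0.042) in the authors' deposited table. Its mean level was 1675 and its interval ran from -1.07 to -0.19. This call lay at the edge of the threshold. It was lost at an adjusted p under 0.01, when p-values were adjusted over every row of the table (adjusted p = 0.055), when the median of all tested genes was subtracted (adjusted p = 0.070) and when that of its decile of mean level was subtracted (adjusted p = 0.12).

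None of the D-type cyclins, which couple mitogens to CDK4 and CDK6, passed, with 0 of 3 also at an unadjusted p under 0.05 (columns of DESeq2). CCND1, by far the most abundant, stood at 0.14 ± 0.13 (adjusted p = 0.55) in the authors' deposited table. Its SE was smaller than that of all but 1.28% of the 313 genes nearest in level, and its interval of -0.11 to 0.39 leaves out a change of 1.0 in either direction. CCND3 had -0.30 ± 0.15 (adjusted p = 0.21) in the authors' deposited table, with an interval from -0.60 to 0.005 that barely reaches 0. CCND2 had 0.80 ± 0.56 (adjusted p = 0.39) in the authors' deposited table, at a mean level of only 15.7. The interval of CCND2, -0.30 to 1.90, takes in both no change and a rise of over 1.0. A change of 1.53 in size would have been needed to pass at that SE. The exons of CCND2 share 13.8% of their bases with AC008012.1 on the same strand, for which no level was available here. The exons of CCND1 share 10.3% of their bases with ORAOV1 (now LTO1), on the opposite strand, which rose (0.72 ± 0.17, adjusted p = 0.00050) in the authors' deposited table. The part of those shared bases in either value was not tested.

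The kinases of the D-type cyclins did not pass either. CDK4 had -0.31 ± 0.15 (unadjusted p = 0.043, adjusted p = 0.18) in the authors' deposited table, with an interval from -0.60 to -0.01. TSPAN31, a tetraspanin gene that shares 43.2% of the exon bases of CDK4 from the opposite strand, had -0.18 ± 0.16 (adjusted p = 0.53) in the same deposited table by the authors. CDK6 had a change of similar size, -0.36, but an SE of 0.41 (adjusted p = 0.63) in the authors' deposited table, its interval running from -1.17 to 0.44. At that SE a change of 1.12 in size would have been needed to pass, against 0.41 for CDK4.

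The errors of these genes were not set by level alone. The SE of CDK6 was 2.64 times the median of the 501 genes nearest to it in mean level and larger than that of 97.8% of them. For CDKN1B the same ratio was 1.42 and for CCNE2 1.40, while for CCND3, CCND2 and CDK4 it was 0.985, 0.992 and 1.01. Of 7377 tested genes at mean levels of 1000 or more, 7180 had an SE of at most 0.26 and the other 197 had an SE above 0.37, with 0 genes between 0.28 and 0.37. CDK6 belongs to the 197, a set described after its values were seen. Of the 197, 0 were called by the authors' adjusted p (columns of DESeq2), and 4 had an unadjusted p under 0.05. In the band below, 14.3% were called. The score is the change divided by its SE, so a set chosen for large SEs passes less often by construction. DESeq2 is known to keep a gene's own estimate of spread where it lies far above the trend of other genes; whether that was done for these genes is not stated in the sources used here.

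**Figure D4:**
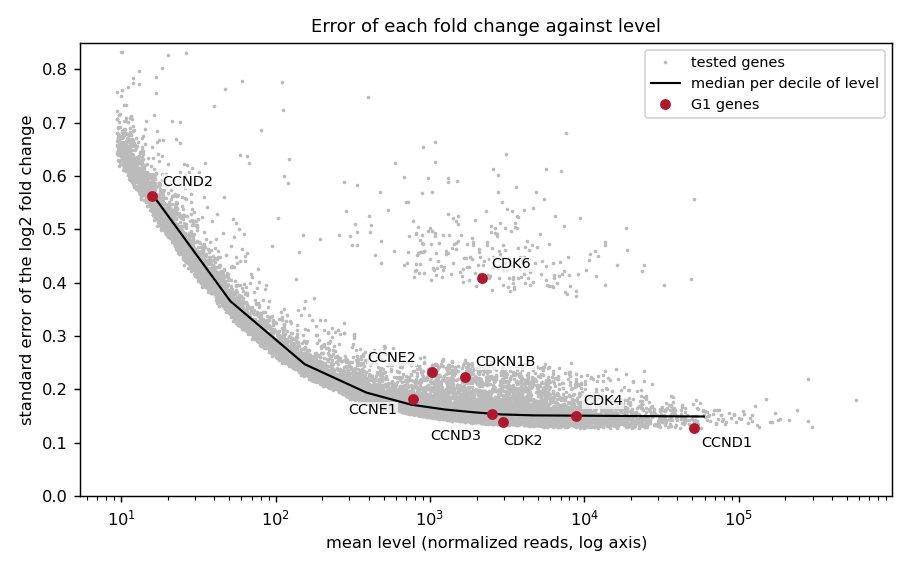
Standard error of the log2 fold change against mean level (log axis) for all tested genes (grey points), with the median per decile of mean level (black line) and the 9 G1 genes (red points). CDK6, at an SE of 0.41, lies in the upper cloud, and CCND2 lies on the line at low level.

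Around these genes, lists of the G1 pathway were counted the same way. Each count is to be read beside the share of all tested genes, 7.64% called lower and 5.24% called higher. They were written with earlier results of these data known, so their directions are no independent evidence. Fewer cells in a phase of the cycle and less RNA per cell cannot be told apart in bulk RNA.

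Other CDK inhibitors were few: of 5, CDKN2A and CDKN2B were not analysed here, and CDKN1C, at a mean level of 2.75, had no adjusted p. Of the 2 tested, 1 fell. CDKN2D, an INK4 inhibitor of CDK4 and CDK6, fell (-0.52 ± 0.18, adjusted p = 0.030) in the authors' deposited table. It did not pass at an adjusted p under 0.01 or once the median of all tested genes was subtracted. CDKN1A, the p53-induced inhibitor, had 0.07 ± 0.14 (adjusted p = 0.81) in the authors' deposited table, at a mean level of 9806, with an interval from -0.20 to 0.35.

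Genes that activate or fold the kinases gave no call (0 of 5) by the authors' adjusted p (columns of DESeq2), and 0 at an unadjusted p under 0.05, with a median of 0.11. Of the CDK-activating kinase, CDK7 had 0.12 ± 0.16, its cyclin CCNH 0.03 ± 0.15 and its assembly factor MNAT1 -0.05 ± 0.15 in the authors' deposited table. The phosphatase CDC25A, which removes inhibitory phosphates from CDK2, had 0.18 ± 0.15, and the cochaperone CDC37 had 0.11 ± 0.17 in the authors' deposited table.

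Ubiquitin ligase genes that act on G1 regulators gave 4 falls among 10, 0 rises and 6 that did not pass, with a median of -0.11. Among the 4 were SKP2 (-0.68 ± 0.18, adjusted p = 0.0025) and CKS1B (-0.78 ± 0.14, adjusted p = 3.14e-06) in the authors' deposited table, the F-box protein and the adaptor that direct the p27 protein to degradation. RBX1, the RING subunit of cullin ligases, had -0.44 ± 0.14, and FBXO4, an F-box protein reported to act on cyclin D1, had -0.69 ± 0.21 in the authors' deposited table. Neither passed at an adjusted p under 0.01, and RBX1 did not pass with the median of all tested genes subtracted (adjusted p = 0.055). FBXW7, which directs E-type cyclins to degradation, had 0.42 ± 0.16 in the authors' deposited table and did not pass (adjusted p = 0.061). It is named here for its value, as the 1 gene of this list called higher once the median of all tested genes was subtracted. AMBRA1 (0.32 ± 0.15, adjusted p = 0.17) and FBXO31 (0.22 ± 0.16, adjusted p = 0.40), named after their values were seen, did not pass either. In this list 7 changes were negative and 3 positive.

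Pocket proteins and E2F factors, which sit between the D-type and E-type kinases, gave 5 falls among 13, 0 rises and 8 that did not pass, with a median of -0.21. The repressor E2F8 fell by 1.14 on the log2 scale (SE 0.16) and the activators E2F2 and E2F1 by 1.01 (SE 0.18) and 0.60 (SE 0.14) in the authors' deposited table. The pocket protein RBL1 had -0.83 ± 0.18 and the dimer partner TFDP1 -0.39 ± 0.13 in the authors' deposited table. TFDP1 did not pass at an adjusted p under 0.01 or with the median of all tested genes subtracted (adjusted p = 0.067). RB1 itself, named after its value was seen, did not pass, at -0.54 ± 0.23 (adjusted p = 0.099) in the authors' deposited table.

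All 16 E2F targets of S phase fell, with a median of -0.69 and a range from -1.08 to -0.49, and 15 of them also passed at an adjusted p under 0.01. The helicase subunit MCM6 (-1.08 ± 0.14), the licensing factor CDC6 (-0.95 ± 0.14) and the polymerase clamp PCNA (-0.91 ± 0.14) of the authors' deposited table were among the 6 with the smallest adjusted p. The others were MCM5 (-1.03 ± 0.15), POLA1 (-0.79 ± 0.15) and CDT1 (-0.76 ± 0.16) in the authors' deposited table. CCNE2, at -1.14, lay below the lowest of these 16 and CCNE1, at -0.34, above the highest; both are known E2F targets. Of the later cyclins and CDK1, 2 of 7 fell, 0 rose and 5 did not pass, with a median of -0.14. CDK1, the mitotic kinase, had -1.39 ± 0.20 and CCNF -0.83 ± 0.17 in the authors' deposited table. CCNA2, the S phase partner of CDK2, had -0.42 ± 0.18 (adjusted p = 0.098), and the mitotic cyclins CCNB1 and CCNB2 had 0.12 ± 0.15 and -0.14 ± 0.14 in the authors' deposited table. CCNB3 (0.33 ± 0.35) and CCNA1 (0.83 ± 0.61), at mean levels of 56.1 and 11.4, in the authors' deposited table were not called either.

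**Figure D5:**
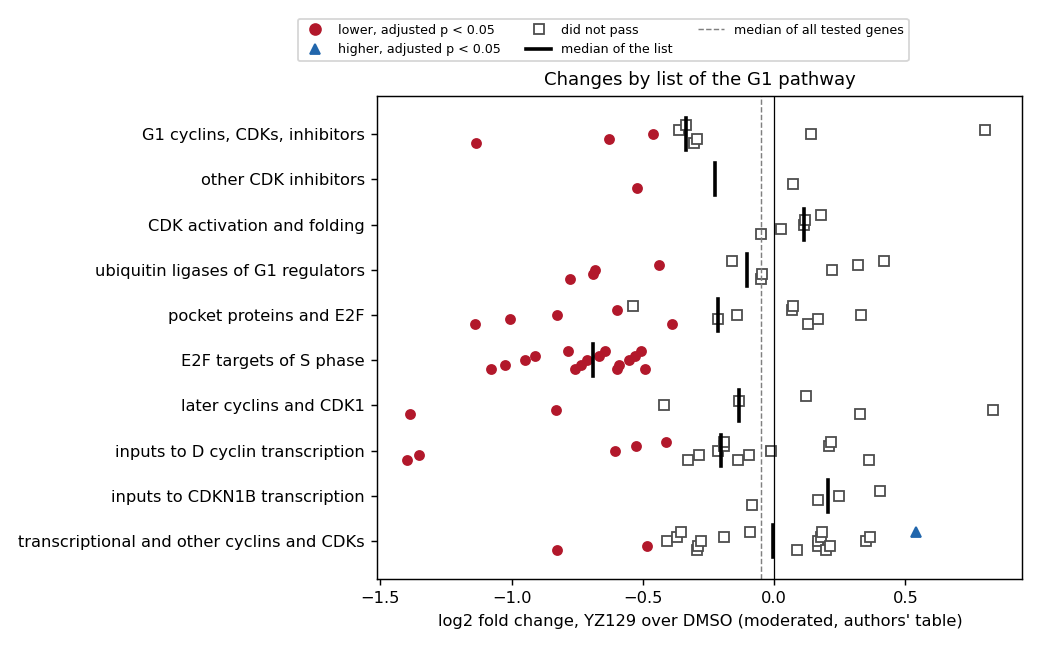
Log2 fold change of YZ129 over DMSO (x axis) of each tested gene in the lists of the G1 pathway; filled marks passed an adjusted p of 0.05, open squares did not, and bars are list medians. All 16 E2F targets of S phase are filled on the left, while the 5 genes for CDK activation and folding are open around 0.

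Transcription factors known to act on D-type cyclin genes gave 5 falls among 16 tested, 0 rises and 11 that did not pass, with a median of -0.20. EGR1 (-1.35 ± 0.13), FOS (-1.40 ± 0.18) and MYC (-0.61 ± 0.14) fell in the authors' deposited table, as did SP1 (-0.53 ± 0.15) and FOSL2 (-0.41 ± 0.15). FOSL2 did not pass at an adjusted p under 0.01, with p-values adjusted over every row (adjusted p = 0.058) or with the median of all tested genes subtracted (adjusted p = 0.090). MYC and SP1 are the factors named above beside the E-boxes of CDK4 and the GC boxes of CCNE1, neither of which passed. GC boxes also lay in the windows of CDK4 (3), CDK6 (3) and CDKN1B (1), and in windows of CCND3 (4 and 5) and CDKN2C (6 and 1). An E-box also lay in the window of CDK6 and in windows of CDKN2C. Of these genes CDKN1B was called lower, CDK4, CDK6 and CCND3 did not pass, and CDKN2C was not analysed here. Whether MYC or SP1 had a part in any of these values was not tested. NFATC1 was not analysed here. Factors of CDKN1B transcription gave no call (0 of 4) by the authors' adjusted p (columns of DESeq2), with 0 at an unadjusted p under 0.05: FOXO1 had 0.40 ± 0.29, FOXO4 0.25 ± 0.18, FOXO3 0.17 ± 0.16 and MEN1 -0.08 ± 0.17 in the authors' deposited table.

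Cyclins and CDKs that act mainly in transcription or outside the G1 switch gave 1 rise and 2 falls among 20. The other 17 did not pass, and the median was -0.003. These shares, 5% higher and 10% lower, lay near those of all tested genes, 5.24% and 7.64%. CCNL1, a cyclin linked to splicing, rose (0.54 ± 0.14, adjusted p = 0.0033), while CCNG2 (-0.83 ± 0.19) and the Mediator kinase CDK19 (-0.48 ± 0.17, adjusted p = 0.042) fell in the authors' deposited table; CDK19 was not called at an adjusted p under 0.01, with p-values adjusted over every row (adjusted p = 0.055) or with the median of all tested genes subtracted. The differences between this list and the G1 genes were not tested.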

How the data were processed

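Poly(A) RNA of U87 cells was sequenced in 4 libraries, grouped by their titles. The build hg19 and the tools TopHat2 2.0.12, Cuffdiff and Cufflinks 2.2.1 are named in the submitters' processing notes, without their roles. Per the file headers, the deposited table has the columns of a DESeq2 result; its version, the read counter and the annotation are not stated in the sources used here. The authors deposited, per gene, a signal (the mean of read counts over size factors), a log2 fold change and its SE, a Wald score, and a p-value before and after adjustment. On the deposited rows the score equalled the change divided by its SE, and adjusting the p-values by Benjamini-Hochberg over 14812 genes returned the deposited ones; 4937 further genes, none with a mean level above 9.43, had no adjusted p and were not tested. No total read count comes with the table, so depth is unknown.

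The 36 distinct mean levels of genes with 2 reads were matched, within 1e-07, by sums of 2 of 8 steps, 1 per library. Genes with both reads in a compared library had median changes between -0.55 and 0.51, where an unmoderated ratio is unbounded, so folds of low genes are understated. Intervals of 95% assume a normal error of the deposited SE, and percentages of bases come from GENCODE 29 exons. Calls are the authors' adjusted p under 0.05. The members and lists were chosen with earlier results of these data known. Named genes are the members, at most 6 called genes per list with the smallest adjusted p, all genes of the shortest lists, genes behind a count of 5 or fewer, and others said to be named after their values were seen. Alternatives were a stricter adjusted p (0.01), a change of at least 1 on the log2 scale, adjustment over every row, and subtraction of the median of all tested genes or of those in the same decile of mean level; the recomputed adjustment was tested on simulated data. Python 3.11.15, pandas 2.3.3 and scipy 1.17.1 were used.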

Additional observations from a re-analysis of the deposited data

How the results depend on the processing

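CCNE2 kept its call under every alternative run, with values from -1.14 to -1.06. Members called lower numbered 3, and 1 (CCNE2) at an adjusted p under 0.01 or with a change of at least 1; 2 were called when p-values were adjusted over every row or the median was subtracted. Over all genes, 1132 were lower and 776 higher; these became 698 and 446 at an adjusted p under 0.01, 174 and 239 with a change of at least 1, and 884 and 954 with the median subtracted, which turns the split. At an adjusted p under 0.01, falls numbered 0 for other CDK inhibitors, 2 for ubiquitin ligases and 1 for transcriptional and other cyclins and CDKs. With the median subtracted, falls numbered 0 for other CDK inhibitors and 1 for transcriptional and other cyclins and CDKs, and rises numbered 1 each for ubiquitin ligases (FBXW7) and for inputs to D cyclin transcription (ETS2). The cause of these moves is the stricter threshold or the shift itself. Of 9 members, the direction of the change held in each alternative, and the calls that were lost are given with CDK2 and CDKN1B above. No paired analysis was possible because the table holds no values per library, and for the same reason no library could be left out; neither was run. Errors were larger at low levels: the median SE was 0.56 in the lowest decile of mean level and 0.15 in the highest.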
